A study of Mus musculus with 22 samples.

Results

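Hypothalamic RNA of mutant mice that had been kept awake for 6 h was compared with that of mutant mice left undisturbed until the same clock time. The mutants, PWScrm+/p− on a C57BL/6J background, lack the Snord116 small nucleolar RNA genes on the chromosome inherited from the father, and every library of the main comparison carries this loss. The 2 groups are the mutant SD libraries (sleep deprivation, n = 4) and the mutant ZT6 libraries (undisturbed, n = 2), where ZT counts hours after lights on. These are 6 of the 22 libraries in the series. PWScrm+/p+ mice without the deletion are the controls, and they had the same treatments (control SD, n = 4, and control ZT6, n = 4). A further group of undisturbed controls at ZT0 (control ZT0, n = 3) was part of the fit but of no comparison. The labels give neither sex nor age. Levels are given in counts per 1000000 (CPM), scaled between libraries by TMM factors. Transcripts of the Y-linked gene Ddx3y stood at 68.1 to 139 CPM and Xist at 0.849 to 1.42 CPM in the 6 libraries. The comparison addresses how sleep loss changes the hypothalamic transcriptome when Snord116 is missing.

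The libraries were chosen by the group named in their labels, by depth and by their neural transcripts. Mutant ZT6 replicate 2 held 7348 counts, below the minimum of 10000, and was left out. Mutant ZT6 replicate 3 was left out because 13 transmitter genes of neurons summed to 232 CPM and 13 myelin genes to 31.4 CPM, without TMM scaling. In the 6 libraries kept, the same sums ran from 2194 to 2862 CPM and from 3800 to 8849 CPM, so the nearest library inside the rule lay far from the one outside it. These values chose the libraries and are a description only. The 4 mutant SD libraries held 33829150, 29850559, 23826100 and 18229852 counts, and the mutant ZT6 libraries, replicates 1 and 4, held 34162946 and 28383930 counts.

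The tissue label was checked against hypothalamic genes. The transcription factor gene Nkx2-1, which specifies the ventral hypothalamus, lay at 25.9, 24.6, 28.4 and 35.4 CPM in mutant SD and at 32.0 and 37.7 CPM in mutant ZT6. Hcrt and Pmch, which encode the orexin and melanin-concentrating hormone precursors of the lateral hypothalamus, were present in all 6 libraries, and so were Oxt and Avp of the magnocellular neurons. Hormone genes of the anterior pituitary, the gland attached below the hypothalamus, were unevenly spread. Added up, 9 such genes, among them Gh for growth hormone and Prl for prolactin, reached 20820, 1.68, 1.90 and 1134 CPM in mutant SD replicates 1 to 4, against 3.01 and 19.5 CPM in mutant ZT6. Mutant SD replicates 1 and 4 therefore carried pituitary transcripts. The fit was repeated without them and without control ZT6 replicate 1, which carried them too. Of 51 named genes, 8 changed sign in that fit. Of the 29 with an unadjusted p under 0.05, 24 kept their sign and stayed under 0.05 without these libraries. Many of the 29 were named for their small p in the full fit. The reduced fit reuses mutant SD replicates 2 and 3 and both mutant ZT6 libraries. These counts are therefore a description, and the part of the pituitary transcripts in the results was not tested.

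The sample titles carry an index number, and the labels do not say what it stands for. Mutant SD replicates 1 to 3 and mutant ZT6 replicate 1 lie in index numbers 1 to 18, and mutant SD replicate 4 and mutant ZT6 replicate 4 in index numbers 43 to 46. The fit without the pituitary-carrying libraries thus holds no mutant SD library of index numbers 43 to 46. The index range was a term in the fit, and 3000 of 21346 genes (14.1%) differed between the ranges at an adjusted p under 0.05 (edgeR quasi-likelihood test, Benjamini-Hochberg adjustment). Each comparison was therefore also read within a range: 3 mutant SD libraries against 1 mutant ZT6 library, and 1 against 1. A gene is called lower or higher in both ranges below when every mutant SD library lay on the same side of the mutant ZT6 library of its own range.

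At the deleted locus, the 18 small nucleolar RNA genes between the outermost Snord116 genes named in the files (chr7:59861731-59904848, GRCm38) had 0 counts in all 6 libraries. The limit that 0 counts allow is 0.0878 to 0.165 CPM per library. The 52 unnamed small nucleolar RNA genes at lower coordinates within the same host transcript had 4 counts in mutant ZT6 replicate 1 and 0 in the other 5 libraries. In controls the named block had 1, 2, 159 and 0 counts in control SD and 19, 1632, 14 and 0 counts in control ZT6. The unnamed block had 5, 4, 333 and 0 counts in control SD and 45, 3836, 53 and 0 counts in control ZT6. The controls of index numbers 43 to 46 thus had 0 counts as well, and in that range the locus does not check the genotype. In index numbers 1 to 18, control SD replicate 2 had 4 counts in the unnamed block, as many as mutant ZT6 replicate 1. With control counts this low and uneven, the locus is a weak check of single libraries there too. The host transcript Snhg14 stood at 226, 374, 309 and 203 CPM in mutant SD and at 282 and 218 CPM in mutant ZT6, with overlapping ranges. Ndn and Magel2, paternally expressed genes of the same imprinted region, differed by -0.25 ± 0.30 and 0.10 ± 0.24 on the log2 scale (SE; edgeR adjusted p of 1 for both). Of 12 genes of the Prader-Willi region that were tested, 4 (33.3%) were lower and 0 higher in both index ranges, beside 15% lower and 12.1% higher over all genes.

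Sleep loss is known to act on several transcript programmes of the rodent brain. Handling and wakefulness raise circulating corticosterone, which enters cells, binds the glucocorticoid receptor and drives target genes such as Sgk1, Tsc22d3 and Fkbp5. Prolonged waking is also known to load the folding machinery: heat shock factor drives cytosolic chaperones, and the unfolded protein response drives those of the endoplasmic reticulum. Brain temperature follows sleep and wake, and the cold-inducible RNA-binding proteins CIRBP and RBM3 are produced less when cells are warmer.

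The binding letters of these pathways were searched for in the promoters of genes described below, and most of these genes had no match. The windows hold 250 bases before and 50 after a RefSeq start site (GRCm38.p6), and 32851 such windows were searched on both strands. The heat shock element searched was GAA, any 2 bases, TTC, any 2 bases, GAA (in 0.603% of all windows). The endoplasmic reticulum stress element was CCAAT, any 9 bases, CCACG (0.119%), and the glucocorticoid response element was G, any base, ACA, any 3 bases, TGT, any base, C (0.475%). Capitals mark the match in each sequence, printed 5′ to 3′ on the gene's strand. Hsph1 (chr5:149636287-149636586, minus strand) has the heat shock element, read on the other strand, at bases 287 to 299 of the window, after the start site. Hspa5 (chr2:34771840-34772139, plus strand) has the endoplasmic reticulum stress element at bases 186 to 204. Of the 6 Sgk1 windows, 1 has the glucocorticoid response element (chr10:21993640-21993939, plus strand, bases 63 to 75). These 3 windows are examples, 1 for each element above, from genes described below, and they were not chosen for their place in the lists. The Hsp90b1 window also holds a match and is not printed. An E-box of the clock, CACGTG (in 7.15% of all windows), was searched for too. It is in the printed Hsph1 and Sgk1 windows, without capitals, in 1 Per1 window and in the Fkbp5 window. Of the other genes searched, the heat shock element was not in the Hspa1b window. The endoplasmic reticulum stress element was in the Hsp90b1 window and not in that of Sdf2l1. The glucocorticoid response element was in no window of Plin4, Hif3a, Fkbp5 or Tsc22d3. A match describes the letters only, and a missing match says only that these letters are not in the window.
Hsph1: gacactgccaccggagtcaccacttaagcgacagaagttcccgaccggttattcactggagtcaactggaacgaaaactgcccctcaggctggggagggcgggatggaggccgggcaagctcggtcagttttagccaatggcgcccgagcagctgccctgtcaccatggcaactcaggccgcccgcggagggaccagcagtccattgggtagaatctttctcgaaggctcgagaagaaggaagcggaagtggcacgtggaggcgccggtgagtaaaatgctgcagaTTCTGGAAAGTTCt
Hspa5: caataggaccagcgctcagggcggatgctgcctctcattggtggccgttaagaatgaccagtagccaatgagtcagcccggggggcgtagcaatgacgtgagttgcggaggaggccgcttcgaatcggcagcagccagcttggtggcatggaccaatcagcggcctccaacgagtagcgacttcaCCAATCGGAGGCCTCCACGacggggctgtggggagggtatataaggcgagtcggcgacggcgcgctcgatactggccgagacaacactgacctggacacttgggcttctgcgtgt
Sgk1: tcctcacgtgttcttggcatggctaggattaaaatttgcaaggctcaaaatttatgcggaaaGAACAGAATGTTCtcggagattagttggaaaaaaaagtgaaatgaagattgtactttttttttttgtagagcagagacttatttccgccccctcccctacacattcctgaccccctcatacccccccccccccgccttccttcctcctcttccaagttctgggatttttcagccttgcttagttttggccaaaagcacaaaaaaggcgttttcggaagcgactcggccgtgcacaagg

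Across all 21346 genes tested, 0 passed an adjusted p of 0.05 between mutant SD and mutant ZT6 (edgeR quasi-likelihood test; percent called 0.0, smallest adjusted p 0.464). At an unadjusted p under 0.05, 311 genes were higher in mutant SD (1.46% of genes) and 216 were lower (1.01%), and of the 311 a total of 60 had 0 counts in both mutant ZT6 libraries. limma-voom also called 0 genes. DESeq2, the tool named in the labels, called 21 genes higher (0.0984%) and 4 lower (0.0187%). Of those 25, 14 had 0 counts in both mutant ZT6 libraries, and 9 had counts in all 6 libraries. The 9 are Rbm3 and Cirbp, which were lower, and Plin4, Hsph1, Gm28035, Paqr8, Tns3, Fosl2 and Mertk, which were higher. Genes lower in mutant SD in both index ranges numbered 3194 (15%), and genes higher in both ranges 2585 (12.1%); these shares are the background for the lists below. In simulated data of the same design, the test recovered 14% of genes changed 2-fold and 83% of genes changed 4-fold, so changes of 2-fold or less were mostly not detectable with 4 against 2 libraries. The changed genes were picked above a minimum mean level, and no difference between index ranges was simulated. These shares therefore do not cover genes of low level or the index-range differences of the real libraries.

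The cold-inducible RNA-binding protein genes gave the smallest p-values. Rbm3 (chrX:8138975-8145880), whose product is known to support synapse maintenance in cooled mouse brain, was at 47.1, 49.5, 47.8 and 44.6 CPM in mutant SD and at 110.1 and 93.5 CPM in mutant ZT6. The 4 mutant SD libraries lay close together, all below both mutant ZT6 libraries. The means were 47.2 ± 2.00 and 102 ± 11.7 CPM (SD, n = 4 and 2), and the log2 fold change was -1.09 ± 0.18 (SE; edgeR adjusted p = 0.464, DESeq2 adjusted p = 0.00100). Within the index ranges the log2 ratios were -1.19 and -1.06. Cirbp (chr10:80165985-80172786), an RNA-binding protein gene that responds to mild cold, was at 68.2, 49.9, 67.1 and 86.7 CPM in mutant SD and at 109.5 and 175 CPM in mutant ZT6. All mutant SD values again lay below both mutant ZT6 values. Its log2 fold change was -0.91 ± 0.17 (SE; edgeR adjusted p = 0.686, DESeq2 adjusted p = 0.000232), with -0.82 and -1.01 within the index ranges. The exact permutation test of either gene over 4 against 2 libraries gave a two-sided p of 0.133. The two-sided p was taken as 2 times the smaller one-sided p, and 0.133 is the smallest that this form allows here. Of all genes, 5.08% did not overlap with mutant SD lower and 4.6% with mutant SD higher.
The third gene of this list, Srsf5, a splicing factor, overlapped between groups at 289.8 to 567 CPM in mutant SD and 331 and 588 CPM in mutant ZT6. Leaving out the pituitary-carrying libraries gave log2 fold changes of -0.97 for Rbm3 and -0.91 for Cirbp, close to those with them. In controls, Rbm3 averaged 56.5 ± 8.26 CPM in control SD and 94.8 ± 16.8 CPM in control ZT6, a log2 fold change of -0.75 ± 0.15 (edgeR adjusted p = 0.441). Cirbp averaged 81.8 ± 12.8 CPM in control SD and 124 ± 32.4 CPM in control ZT6, a log2 fold change of -0.59 ± 0.14 (edgeR adjusted p = 0.504). The mutant and control fold changes differed by -0.34 ± 0.24 for Rbm3 and -0.32 ± 0.22 for Cirbp, and neither difference passed the edgeR test (adjusted p of 1).

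**Figure D1:**
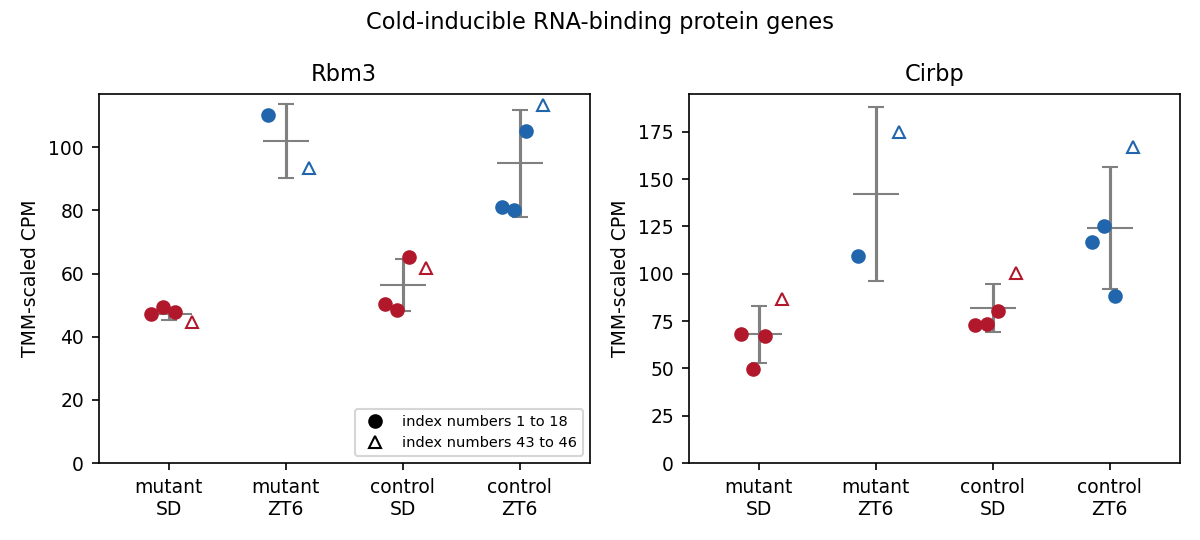
Rbm3 and Cirbp in TMM-scaled CPM (linear axis from 0) per library in mutant SD, mutant ZT6, control SD and control ZT6. Filled circles are index numbers 1 to 18, open triangles index numbers 43 to 46, and grey marks the mean ± SD; all 4 mutant SD libraries lie below both mutant ZT6 libraries for both genes.

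Genes known to respond to glucocorticoids were the list with the most members higher in both index ranges. Of 25 tested, 14 (56.0%) were higher in both index ranges and 0 were lower, and 9 had an unadjusted p under 0.05, all higher. Their median log2 fold change was 0.81, beside -0.02 over all genes tested, and 0 of the 25 passed the adjusted threshold. In controls 15 of the same 25 had an unadjusted p under 0.05, all higher, with a median of 0.67; over all genes, 2.07% were higher and 5.56% lower at that p in controls.
Sgk1, a serum- and glucocorticoid-regulated kinase gene, was at 30.2, 42.5, 59.8 and 118 CPM in mutant SD and at 28.7 and 21.6 CPM in mutant ZT6. The groups did not overlap, but mutant SD replicate 1 lay just above the mutant ZT6 library of its own index range. Its log2 fold change was 1.31 ± 0.42 (edgeR adjusted p of 1), with 0.62 and 2.44 within the index ranges, 0.58 without mutant SD replicate 4 and 0.85 without the pituitary-carrying libraries. In controls Sgk1 averaged 99.1 ± 22.8 CPM in control SD and 20.9 ± 4.23 CPM in control ZT6, and its log2 fold change of 2.25 ± 0.34 had the smallest adjusted p of the control comparison (0.178, edgeR). The mutant minus control difference was -0.94 ± 0.51, which did not pass the test (edgeR adjusted p of 1, unadjusted p = 0.0845).
Tsc22d3, which encodes the anti-inflammatory protein GILZ, was at 89.9, 132, 127 and 162 CPM in mutant SD and at 85.5 and 59.4 CPM in mutant ZT6 (log2 fold change 0.81 ± 0.29). Plin4, a lipid droplet coat protein gene, was at 4.96, 3.80, 9.38 and 36.5 CPM in mutant SD and at 0.983 and 2.93 CPM in mutant ZT6 (2.90 ± 0.73; DESeq2 adjusted p = 0.00200). Hif3a, an inhibitory subunit gene of the hypoxia-inducible factor family, was at 10.5, 3.33, 5.70 and 14.8 CPM in mutant SD and at 2.59 and 1.86 CPM in mutant ZT6 (1.94 ± 0.56). In these 3 genes every mutant SD library exceeded both mutant ZT6 libraries. Fkbp5, a co-chaperone gene that dampens the glucocorticoid receptor, overlapped between groups at 51.0, 25.7, 35.2 and 88.4 CPM in mutant SD and 25.4 and 35.8 CPM in mutant ZT6 (0.80 ± 0.33), though it was higher within both index ranges. Cdkn1a, the cell cycle inhibitor p21, was at 11.98, 8.65, 14.9 and 35.7 CPM in mutant SD and at 8.79 and 5.78 CPM in mutant ZT6 (1.24 ± 0.53), so 1 mutant SD library lay below a mutant ZT6 library.
The remaining members with an unadjusted p under 0.05, named after their values were seen, were the transcription factor gene Zbtb16 (1.22 ± 0.37), the arrestin domain gene Arrdc2 (1.66 ± 0.63) and the lipoprotein lipase inhibitor gene Angptl4 (1.08 ± 0.50). Mutant SD replicate 4 was the highest of the 4 for each of the 9 genes. Without the pituitary-carrying libraries the log2 fold change was 0.74 for Hif3a (unadjusted p = 0.123), 0.28 for Fkbp5 (unadjusted p = 0.38), 0.77 for Cdkn1a (unadjusted p = 0.191), 0.65 for Zbtb16 and 0.50 for Angptl4. It was 2.01 for Plin4 and 0.74 for Tsc22d3, both at an unadjusted p under 0.05. The sum of the list was 767, 735, 805 and 1375 CPM in mutant SD and 676 and 739.7 CPM in mutant ZT6. Without mutant SD replicate 4 the list median was 0.56 with 2 members at an unadjusted p under 0.05, and without the pituitary-carrying libraries it was 0.43 with 3 such members. The shares of all genes at that p in these fits are not given. Mutant SD replicate 4 is also the only mutant SD library of index numbers 43 to 46, and the part of the index range, the pituitary transcripts or the animal in its high values was not tested.

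Cytosolic heat shock chaperones, which refold proteins in the cytosol, had a small positive median. Of 30 tested, 10 (33.3%) were higher and 3 lower in both index ranges, and 4 had an unadjusted p under 0.05, all higher. The median log2 fold change was 0.16 in mutants and 0.42 in controls, where 14 of 30 had an unadjusted p under 0.05. The mutant median was 0.06 without mutant ZT6 replicate 4, 0.29 without mutant ZT6 replicate 1 and 0.32 without the pituitary-carrying libraries.
Hsph1, the HSP110 nucleotide exchange factor gene whose promoter is printed above, was at 134, 171, 158 and 177 CPM in mutant SD and at 88.9 and 37.0 CPM in mutant ZT6. The groups did not overlap, and the 2 mutant ZT6 libraries differed from each other by more than the mutant SD libraries did. Its log2 fold change was 1.35 ± 0.29 (edgeR adjusted p of 1, DESeq2 adjusted p = 0.00232). Hsph1 depended on which mutant ZT6 library was kept: the fold change was 2.28 without mutant ZT6 replicate 1, when it passed the edgeR test (adjusted p = 0.0140), and 0.79 without mutant ZT6 replicate 4. In controls the log2 fold change was 0.70 ± 0.23.
Hspa1b, the stress-inducible HSP70 gene, was at 7.20, 6.998, 7.27 and 15.3 CPM in mutant SD and at 3.99 and 5.28 CPM in mutant ZT6. All 4 mutant SD libraries lay above both mutant ZT6 libraries, with a log2 fold change of 1.08 ± 0.36 in mutants and 1.25 ± 0.28 in controls. The Hspa1a copy is nearly identical in sequence, so the split of reads between the copies is uncertain. Dnajb1, an HSP40 co-chaperone gene, was at 53.2, 56.0, 53.9 and 61.6 CPM in mutant SD and at 37.1 and 41.6 CPM in mutant ZT6 (0.53 ± 0.17). Hspb1, the small heat shock protein HSP27, was high in 1 library, at 19.1, 2.62, 4.53 and 4.77 CPM in mutant SD and 2.21 and 2.89 CPM in mutant ZT6 (1.70 ± 0.79, and 0.73 without that library). Both Dnajb1 and Hspb1 were named after their values were seen. Hspa8, the constitutive HSC70 gene, overlapped between groups, at 2331, 2869, 2487 and 3765 CPM in mutant SD and 2457 and 2911 CPM in mutant ZT6 (0.21 ± 0.19, against 0.54 ± 0.15 in controls).

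Chaperones of the endoplasmic reticulum, which fold secreted and membrane proteins, gave 13 of 31 genes (41.9%) higher and 3 lower in both index ranges. The median log2 fold change was 0.19 in mutants and 0.27 in controls. Hspa5, the master chaperone BiP, was at 738, 707, 604 and 872 CPM in mutant SD and at 513 and 605 CPM in mutant ZT6. The groups touched, since mutant SD replicate 3 and mutant ZT6 replicate 4 had nearly equal values from different index ranges. Its log2 fold change was 0.53 ± 0.23 in mutants and 0.53 ± 0.18 in controls (edgeR adjusted p of 1 in mutants and 0.584 in controls). Sdf2l1, a cofactor gene of BiP, was at 25.4, 16.3, 16.1 and 17.8 CPM in mutant SD and at 10.8 and 13.3 CPM in mutant ZT6 (0.73 ± 0.36), without overlap. Hsp90b1, the GRP94 gene, was at 791, 1007, 859 and 1451 CPM in mutant SD and at 759 and 1131 CPM in mutant ZT6 (0.33 ± 0.23), with overlap. At an unadjusted p under 0.05 was Hspa5, and so were further members named after their values were seen, all higher. These further members were the unfolded protein response factor gene Xbp1 (0.44 ± 0.20), the disulfide isomerase genes Pdia4 (0.46 ± 0.19) and Pdia6 (0.37 ± 0.17), and the co-chaperone gene Dnajc3 (0.47 ± 0.20). This count of 5 was 0 without mutant SD replicate 1, 0 without mutant ZT6 replicate 4 and 0 without the pituitary-carrying libraries, where the list median was 0.15, 0.15 and 0.25. With all 17 libraries the count was 7 under RLE in place of TMM factors, 7 by limma-voom, 8 by DESeq2 and 6 with 3 index ranges. The shares of all genes at that p in these other fits are not given, so these counts have no background here.

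**Figure D2:**
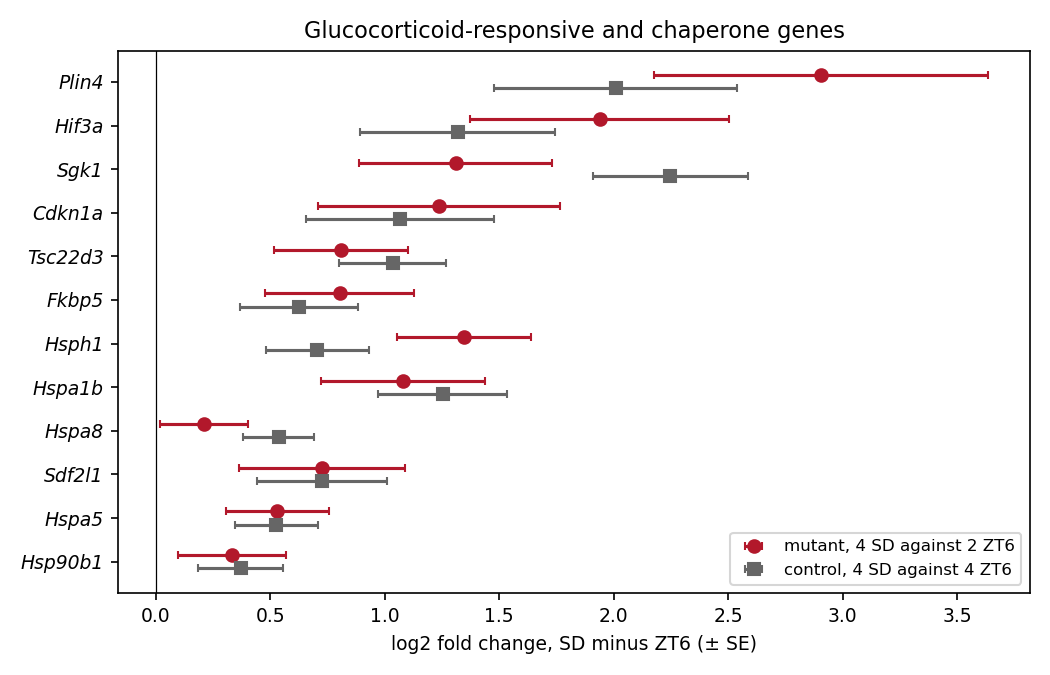
Log2 fold change of SD over ZT6 with its SE for 12 glucocorticoid-responsive and chaperone genes, in mutants (circles, 4 against 2 libraries) and in controls (squares, 4 against 4). All 12 mutant values lie above 0, from 0.21 for Hspa8 to 2.90 for Plin4. Plin4, Hif3a and Hsph1 were named for a small p on the higher side, so their sign was set by that choice. In the full lists, 2 of 25 glucocorticoid-responsive genes, 5 of 30 cytosolic chaperones and 5 of 31 endoplasmic reticulum chaperones lay below 0.

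Genes that neurons induce within minutes of firing had a median near 0. Of 27 immediate early genes tested, 5 (18.5%) were higher and 2 lower in both index ranges, and the median log2 fold change was 0.01, or -0.17 without the pituitary-carrying libraries. Fos, the textbook activity marker, was at 13.2, 8.92, 7.56 and 15.1 CPM in mutant SD and at 12.4 and 13.9 CPM in mutant ZT6 (-0.22 ± 0.33). Its 2 lower mutant SD values are those without pituitary transcripts, and without the pituitary-carrying libraries its log2 fold change was -0.66 (unadjusted p = 0.0292). Arc, which encodes a synaptic activity-regulated protein, was at 10.6, 12.7, 9.496 and 17.6 CPM in mutant SD and at 12.4 and 17.2 CPM in mutant ZT6 (-0.14 ± 0.29). Homer1, whose short form is induced by waking in cortex, was at 21.8, 37.1, 29.4 and 28.7 CPM in mutant SD and at 25.5 and 26.1 CPM in mutant ZT6 (0.14 ± 0.32). The ranges of all 3 genes overlapped.
Egr1, a zinc finger factor of the same class, was lower within each index range, at 18.4, 18.5, 18.8 and 40.4 CPM in mutant SD and 26.2 and 54.5 CPM in mutant ZT6. Its level was higher in both libraries of index numbers 43 to 46, and the log2 fold change with the index range in the fit was -0.52 ± 0.19 (unadjusted p = 0.0165, edgeR adjusted p of 1). In controls the log2 fold change was -0.10 ± 0.16. Fosl2, an AP-1 subunit gene, went the other way, at 24.8, 12.2, 12.04 and 15.99 CPM in mutant SD and 8.46 and 6.38 CPM in mutant ZT6, without overlap (1.09 ± 0.28; DESeq2 adjusted p = 0.0386). Without the pituitary-carrying libraries its log2 fold change was 0.64. Among 17 feedback genes of the MAP kinase pathway, which switch off the signal that induces early genes, 8 (47.1%) were higher and 1 lower in both index ranges, with a median of 0.23. This median was 0.08 without mutant SD replicate 1 and 0.145 without the pituitary-carrying libraries. Spry4, a receptor signalling inhibitor gene, was at 12.3, 13.4, 12.7 and 10.3 CPM in mutant SD and at 8.16 and 8.63 CPM in mutant ZT6 (0.47 ± 0.19). Dusp4, a MAP kinase phosphatase gene, was at 5.33, 5.99, 4.97 and 6.90 CPM in mutant SD and at 3.19 and 4.03 CPM in mutant ZT6 (0.75 ± 0.26). Neither gene overlapped between groups, and both were named after their values were seen. Of 18 activity-regulated synaptic genes, 4 (22.2%) were higher in both ranges and 0 lower, and the median was 0.01 in mutants (0.17 without the pituitary-carrying libraries) against 0.28 in controls.

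The circadian clock, a loop in which PER and CRY proteins repress their own transcription, showed values near 0. Of 19 core clock genes, 2 (10.5%) were higher and 5 (26.3%) lower in both index ranges, and the median log2 fold change was -0.03. The median was -0.22 without the pituitary-carrying libraries and 0.13 without mutant ZT6 replicate 4. Per1, a clock repressor that glucocorticoids also induce, was at 68.0, 29.2, 37.8 and 74.3 CPM in mutant SD and at 33.3 and 60.2 CPM in mutant ZT6 (0.22 ± 0.38). Per2, its partner, was at 34.0, 24.3, 22.2 and 38.5 CPM in mutant SD and at 21.6 and 27.7 CPM in mutant ZT6 (0.29 ± 0.25). Per2 was higher within both index ranges, and Per1 was not. Both were below 0 without the pituitary-carrying libraries, at -0.41 for Per1 and -0.08 for Per2. Dbp, a clock output factor gene, was at 50.6, 29.4, 27.3 and 26.2 CPM in mutant SD and at 35.6 and 43.9 CPM in mutant ZT6 (-0.33 ± 0.37). Mutant SD replicate 1 lay above both mutant ZT6 libraries for Dbp, and the other 3 lay below. Nr1d1, the repressor REV-ERB alpha, was at 98.2, 45.1, 53.6 and 60.4 CPM in mutant SD and at 52.3 and 84.1 CPM in mutant ZT6 (-0.05 ± 0.35), with overlap. The core clock member with the smallest p was Bhlhe41 (DEC2), a repressor gene known from human short-sleep families and named after its values were seen. It was at 48.0, 48.0, 61.8 and 56.2 CPM in mutant SD and at 68.3 and 96.7 CPM in mutant ZT6 (-0.51 ± 0.17; unadjusted p = 0.00843, edgeR adjusted p of 1), without overlap, and at -0.10 ± 0.14 in controls. Its log2 fold change was -0.29 without the pituitary-carrying libraries, with an unadjusted p above 0.05. Among 14 adenosine genes, which handle a sleep-promoting signal, 2 were higher and 2 lower in both ranges, with a median of -0.04.

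Hypothalamic neuropeptide genes were more often lower than higher in mutant SD: of 31 tested, 8 (25.8%) were lower and 0 higher in both index ranges. The median log2 fold change was -0.18 in mutants and 0.13 in controls, and 1 member had an unadjusted p under 0.05. In bulk tissue, fewer cells of a type and less RNA per cell cannot be told apart, and neither can a shift in what was dissected. Hcrt, the precursor of the wake-promoting orexins, was at 17.4, 127, 186 and 80.4 CPM in mutant SD and at 164 and 91.1 CPM in mutant ZT6 (-0.37 ± 0.80). Pmch was at 230.1, 862, 1047 and 561 CPM in mutant SD and at 1191 and 677 CPM in mutant ZT6 (-0.48 ± 0.52). Mutant SD replicate 1 was the lowest library for both genes, and it was also the library with the most pituitary transcripts. Hcrt gave 0.17 and Pmch 0.04 without the pituitary-carrying libraries. Without the pituitary-carrying libraries the list median was -0.03, and without mutant ZT6 replicate 1 it was 0.03.
Npy and Agrp, which encode hunger peptides of the arcuate nucleus, gave -0.48 ± 0.46 and 0.26 ± 0.62, and Oxt and Avp gave 0.21 ± 0.69 and 0.09 ± 0.58. Each of these 4 genes overlapped between groups, and Agrp (-0.23) and Oxt (-0.12) were below 0 without the pituitary-carrying libraries. Npvf, the RFamide-related peptide precursor of the dorsomedial hypothalamus, was at 7.68, 7.74, 10.8 and 9.54 CPM in mutant SD and at 18.5 and 13.2 CPM in mutant ZT6, without overlap (-0.80 ± 0.32; unadjusted p = 0.0250, named after its values were seen). Without mutant ZT6 replicate 1 it was -0.28. In controls it gave 0.36 ± 0.27. Pomc, which encodes melanocortin and ACTH precursors and is made in the arcuate nucleus and in the pituitary, was at 4096, 18.6, 21.5 and 104 CPM in mutant SD and at 31.4 and 20.1 CPM in mutant ZT6. Its 2 high values fall in the same libraries as the pituitary sum of 20820 and 1134 CPM, and its log2 fold change of 4.71 ± 2.29 (edgeR adjusted p of 1) rests on them, with -0.36 without these libraries. Gh had 0 counts in mutant SD replicates 2 and 3.
Transcription factors that mark hypothalamic regions gave similar counts: 7 of 26 (26.9%) were lower and 1 higher in both ranges, with a median of -0.21 in mutants and 0.06 in controls. Otp, needed for neuroendocrine neurons, was at 43.6, 40.6, 37.8 and 58.9 CPM in mutant SD and at 47.0 and 83.0 CPM in mutant ZT6 (-0.35 ± 0.16; unadjusted p = 0.0413), lower within each index range. It was named after its values were seen.

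**Figure D3:**
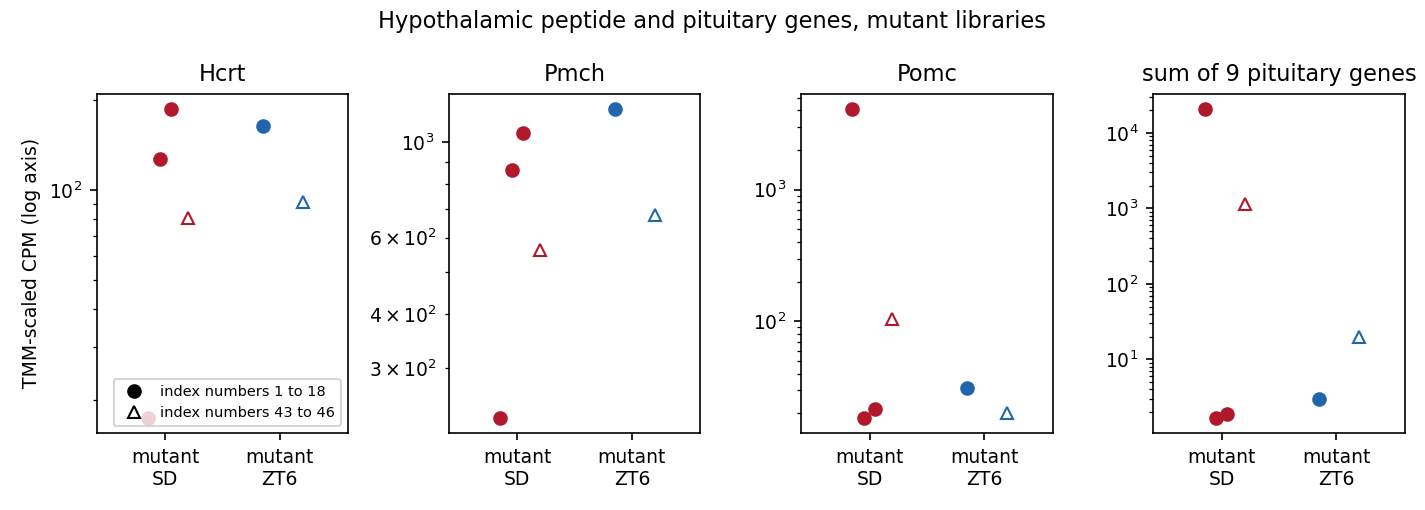
Hcrt, Pmch, Pomc and the sum of 9 pituitary genes in TMM-scaled CPM on log axes, per mutant library, with mutant SD left of mutant ZT6. Circles are index numbers 1 to 18 and triangles 43 to 46; mutant SD replicate 1 is lowest for Hcrt (17.4) and Pmch (230.1) and highest for Pomc (4096) and the pituitary sum (20820).

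Genes of energy production had small negative fold changes in many members. The mitochondrial genome encodes 13 respiratory chain proteins, and all 13 had a log2 fold change below 0 with a median of -0.40, where 47.1% of all genes tested were above 0. Of the 13, 8 (61.5%) were lower in both index ranges. Their sum was 35970, 65450, 44430 and 42930 CPM in mutant SD and 71020 and 56510 CPM in mutant ZT6, so mutant SD replicate 2 lay above mutant ZT6 replicate 4. mt-Atp6, an ATP synthase subunit gene named after its values were seen, was the only member with an unadjusted p under 0.05 (-0.77 ± 0.33, and -0.46 without the pituitary-carrying libraries). Of 75 nuclear-encoded subunits of the same chain, 70 had a log2 fold change below 0, 41 (54.7%) were lower and 0 higher in both ranges, and 0 had an unadjusted p under 0.05. In a fit of the 6 mutant libraries alone, 8 of the 75 were lower and 1 higher at that p. The shares of all genes given above belong to the fit of 17 libraries. The share in the smaller fit is not given, so this count has no background here. The 75 genes summed to 7309, 9150, 9392 and 9475 CPM in mutant SD and 11060 and 10140 CPM in mutant ZT6, without overlap. The median was -0.24 over both index ranges, -0.38 in index numbers 1 to 18 and -0.09 in 43 to 46, and -0.02 in controls.
The 82 tested genes of cytosolic ribosomal proteins, which build the translation machinery, gave 34 (41.5%) lower and 2 higher in both ranges with a median of -0.20. They summed to 15170, 12860, 13130 and 15310 CPM in mutant SD and to 17060 and 16480 CPM in mutant ZT6, again without overlap. At an unadjusted p under 0.05, 0 were lower and 1 higher. In the fit of the 6 mutant libraries alone 12 of 81 were lower and 0 higher, again without a share of all genes beside them. Cholesterol synthesis and SREBP2 target genes gave 11 of 21 (52.4%) lower and 0 higher, with a median of -0.24 in mutants and -0.04 in controls. Hmgcs1, the HMG-CoA synthase gene, was at 144, 369, 288 and 282 CPM in mutant SD and at 397 and 403 CPM in mutant ZT6 (-0.48 ± 0.32), and Sqle, the squalene epoxidase gene, gave -0.33 ± 0.14 (unadjusted p = 0.0371); both were named after their values were seen, and without the pituitary-carrying libraries they gave -0.05 for Hmgcs1 and -0.14 for Sqle. These medians moved with the mutant ZT6 library kept: without replicate 1 they were -0.27 for mitochondrially encoded, -0.07 for nuclear respiratory, -0.05 for ribosomal and -0.17 for cholesterol genes. Without mutant ZT6 replicate 4 they were -0.53, -0.40, -0.31 and -0.27 in the same order. Without the pituitary-carrying libraries they were -0.17, -0.15, -0.24 and -0.06 in the same order. Whether library quality plays a part in these shared small shifts was not tested.

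**Figure D4:**
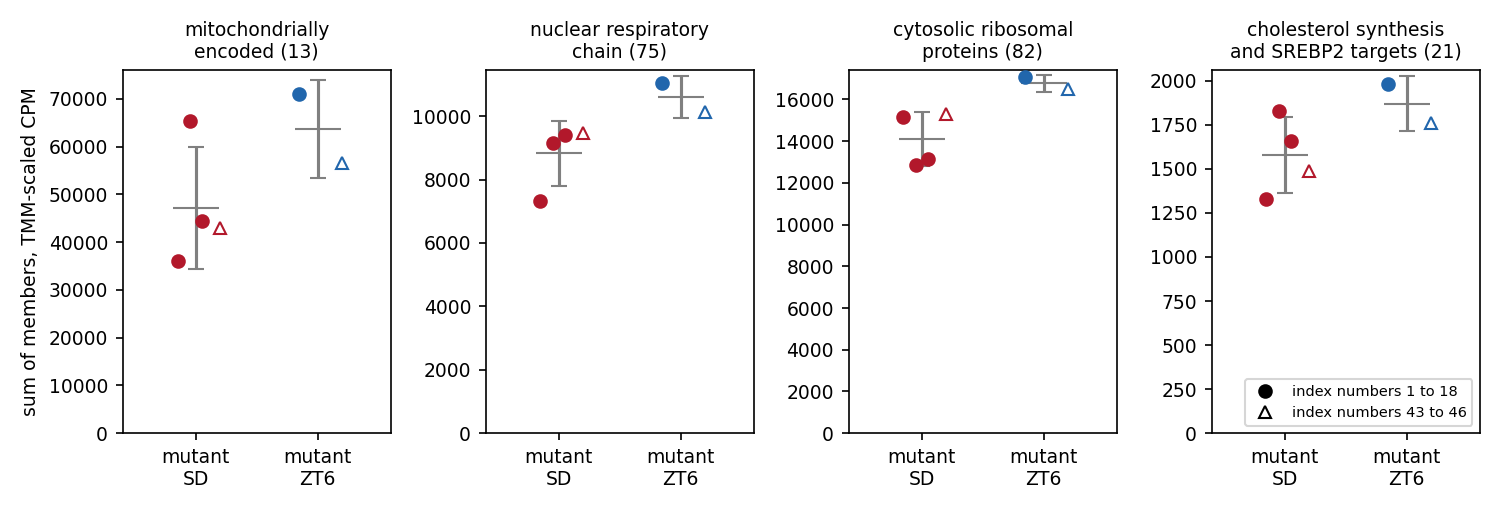
Sums of the tested members of 4 lists in TMM-scaled CPM (linear axes from 0) per mutant library, mutant SD left of mutant ZT6, with mean ± SD in grey; circles are index numbers 1 to 18 and triangles 43 to 46. The mutant SD sums of nuclear respiratory chain genes reach 9475 at most, below both mutant ZT6 sums of 11060 and 10140, while the mitochondrially encoded sums overlap.

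**Figure D5:**
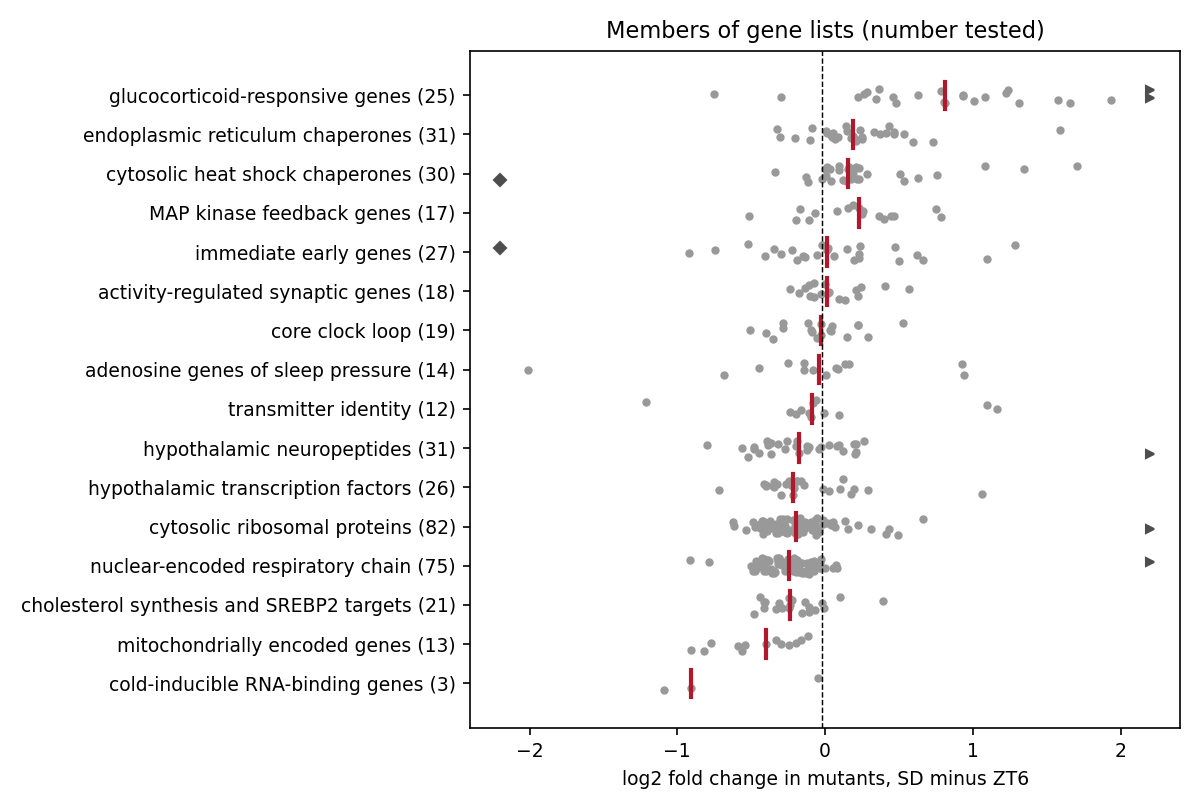
Log2 fold change of mutant SD over mutant ZT6 for each tested member (grey) of 16 lists, with the list median (red) and the median of all genes tested (dashed, -0.02). Among the lists drawn, the glucocorticoid list has the highest median (0.81) and the cold-inducible list the lowest (-0.91). The pituitary list (8.08) and the meningeal and fibroblast list (1.20) had higher medians and are not drawn. The 7 members beyond 2.2 in either direction are drawn at the edge with a triangle or diamond.

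Lists of other cell types gave context for these values. Astrocyte markers had a median of 0.00, microglia markers -0.01 and myelin genes 0.06, and 0.09, 0.08 and 0.35 in this order without the pituitary-carrying libraries. Endothelial markers had a median of 0.17, with 2 of 10 higher and 1 lower in both ranges, and of 0.03 without the pituitary-carrying libraries. The myelin sum was 3391, 8582, 7277 and 9048 CPM in mutant SD and 6729 and 7410 CPM in mutant ZT6, lowest in the library with the most pituitary transcripts. Meningeal and fibroblast genes summed to 226, 86.4, 136 and 97.9 CPM in mutant SD and to 46.3 and 149 CPM in mutant ZT6, and blood genes to 411, 395, 273 and 1881 CPM in mutant SD and to 480.5 and 1112 CPM in mutant ZT6. Their part in the results above was not tested.
Opalin, an oligodendrocyte membrane protein gene, stood apart from the other myelin genes, at 8.81, 21.7, 17.5 and 12.4 CPM in mutant SD and 34.9 and 32.8 CPM in mutant ZT6. The groups did not overlap, and the log2 fold change was -1.20 ± 0.30 in mutants (edgeR adjusted p of 1, unadjusted p = 0.00128) and -0.74 ± 0.25 in controls. Without the pituitary-carrying libraries it was -0.77. Mbp, the major myelin protein gene, gave 0.06 ± 0.29.

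Among the other genes of smallest p were several at moderate levels. Paqr8, a membrane progestin receptor gene, was at 152, 263, 214 and 199.6 CPM in mutant SD and at 133 and 106 CPM in mutant ZT6 (0.77 ± 0.18; edgeR adjusted p of 1, DESeq2 adjusted p = 0.0248), with 0.68 ± 0.14 in controls. Tns3, a focal adhesion protein gene, was at 119, 110.3, 94.6 and 121 CPM in mutant SD and at 78.9 and 70.9 CPM in mutant ZT6 (0.56 ± 0.16; DESeq2 adjusted p = 0.0336), with 0.53 ± 0.12 in controls. Mertk, a receptor of phagocytic glia, was at 17.2, 18.7, 15.96 and 42.5 CPM in mutant SD and at 11.6 and 13.6 CPM in mutant ZT6 (0.96 ± 0.25; DESeq2 adjusted p = 0.0463). All 3 had every mutant SD library above both mutant ZT6 libraries.
The histone gene Hist2h2be gave 0.99 ± 0.28 and the predicted gene Gm28035 gave 1.87 ± 0.49, both without overlap. On the lower side, Pla2g4e, a phospholipase A2 gene, was at 3.90, 3.90, 5.42 and 2.75 CPM in mutant SD and at 8.22 and 9.23 CPM in mutant ZT6 (-1.32 ± 0.35), with -1.05 ± 0.29 in controls. Ncan, which encodes the perineuronal matrix protein neurocan, was at 99.8, 79.2, 91.2 and 99.7 CPM in mutant SD and at 110.5 and 185 CPM in mutant ZT6 (-0.55 ± 0.15). Trub1, a pseudouridine synthase gene, was at 16.6, 16.6, 16.04 and 17.7 CPM in mutant SD and at 23.3 and 26.3 CPM in mutant ZT6 (-0.52 ± 0.14), and Tmod1, an actin-capping protein gene, gave -0.57 ± 0.17. The edgeR adjusted p was 1 for all of these.
Some genes of small p were at or near 0 in 1 group. Gvin1, an interferon-induced GTPase gene of a family of close copies, was at 4.75, 2.89, 2.02 and 3.08 CPM in mutant SD and at 0 counts in both mutant ZT6 libraries, while controls averaged 2.58 ± 1.97 CPM in control SD and 1.89 ± 2.02 CPM in control ZT6. Gm22623 was at 20.6 CPM in mutant ZT6 replicate 1 and at 0.228 CPM or less in the other 5 libraries. Clasrp, a splicing-related gene, was at 0.501, 0.673, 0 and 8.58 CPM in mutant SD and at 8.79 and 39.6 CPM in mutant ZT6. Fitted fold changes of these genes depend on the prior count and are not given.

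Whether the mutant response differed from that of controls was tested as the difference of the 2 log2 fold changes. With edgeR 0 of 21346 genes passed (percent called 0.0, smallest adjusted p 1.0), 556 (2.60%) were at an unadjusted p under 0.05, and by DESeq2 the calls were 13 positive (0.0609%) and 2 negative (0.00937%). Of the 5 genes of smallest p, Cwf19l1, a gene related to RNA lariat debranching, was at 0.448, 1.08, 0.485 and 0.505 CPM in mutant SD and 3.73 and 1.79 CPM in mutant ZT6, and averaged 3.48 ± 1.59 CPM in control SD and 1.01 ± 0.389 CPM in control ZT6, a difference of -3.98 ± 0.82. Gm26686 averaged 2.41 ± 0.312 CPM in mutant SD and 1.56 ± 0.432 CPM in mutant ZT6, against 1.73 ± 0.668 CPM in control SD and 5.58 ± 2.31 CPM in control ZT6, a difference of 2.26 ± 0.55. The interferon-inducible gene Ifi214 and 2310039L15Rik had means below 1 CPM in every group and were near 0 in mutant ZT6, so no difference is given for them. Gm15516 was high only in libraries of index numbers 43 to 46, at 28.3 CPM in mutant SD replicate 4, 36.7 CPM in mutant ZT6 replicate 4 and 33.2 CPM in control ZT6 replicate 4, with 0 counts in control SD replicate 4.
For the lists described above, the median difference of mutant minus control response was 0.09 for glucocorticoid-responsive genes, -0.20 for cytosolic chaperones, -0.04 for endoplasmic reticulum chaperones, -0.26 for neuropeptides and -0.25 for nuclear respiratory chain genes, beside 0.02 over all genes. Among genes with an unadjusted p under 0.05 in mutants, 183 of the 311 higher ones (58.8%) had a log2 fold change above 0 in controls, where 46.9% of all genes did. Of the 216 lower ones, 155 (71.8%) were below 0 in controls, where 53.1% of all genes were.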

How the data were processed

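Hypothalamic polyadenylated RNA of single mice was sequenced (TruSeq libraries, NovaSeq). Per the labels' protocols, trimming used Trimmomatic 0.38, transcripts were estimated by kallisto 0.44.0 against Ensembl 79 and tximport gave gene totals. The values the authors deposited are expected counts, that is kallisto estimates for each gene as whole numbers without normalisation. Per the labels, the authors tested with DESeq2 and kept genes past 2-fold.

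The 5 lines that repeat a gene ID were dropped, which left 41456 IDs. Libraries under 10000 counts (1) and those with few neural transcripts (4) were left out, so 17 libraries in 5 groups were fitted together. The fifth group is control ZT0, which shared the filter and the estimate of spread. The tool was edgeR 4.0.16 under R 4.3.3, with filterByExpr (min.count 10, min.total.count 15), TMM factors, the index range as a covariate, two-sided quasi-likelihood tests and Benjamini-Hochberg adjustment over 21346 genes. The SE was derived from the fold change and its F statistic. DESeq2 1.42.0 and limma-voom (limma 3.58.1) were alternatives; DESeq2 gave no adjusted p for 216 genes in the mutant comparison. Within-range ratios used a pseudocount of 0.1 CPM. The limit for 0 counts is 3 counts per library and covers counting error only, because the protocol has no molecular identifiers. P-values measure the spread between mice.

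The libraries, the 38 gene lists and the fixed genes were chosen with earlier results of these data known. Named genes are 29 fixed genes, the 10 of smallest p on either side with mean CPM of 1 or more (since 0 genes were called) and the 5 of smallest p in the genotype difference. Other list members picked for their p-value or fold change are said to be named after their values were seen. The fit was tested on simulated data with 200 changed genes. Coordinates are from GENCODE M21 (GRCm38).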

Additional observations from a re-analysis of the deposited data

Results flagged for a closer look

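In groups of 4 libraries, a value was set apart when its gap to the next exceeded Dixon's critical value; chance alone does this in about 1 in 20 groups, and 87 groups of values were examined. In mutant SD, 17 values stood apart. Mutant SD replicate 4 was high for Egr1 (40.4 CPM), Hspa1b (15.3), Plin4 (36.5), Mertk (42.5), Clasrp (8.58) and Gm15516 (28.3). The same library was high for the summed activity-regulated synaptic genes (3633 CPM), glucocorticoid-responsive genes (1375), glucose and lactate transport genes (2410) and blood genes (1881). It is the only mutant SD library of index numbers 43 to 46. In that range Egr1 also stood at 54.5 CPM in mutant ZT6, 53.4 CPM in control SD and 53.9 CPM in control ZT6. Mertk, in the same order, stood at only 13.6, 24.7 and 16.1 CPM. The part of index range and animal in the values set apart was not tested. Mutant SD replicate 1 was high for Dbp (50.6 CPM), Pomc (4096) and the summed neuropeptide (5438), choroid plexus (102.7) and pituitary genes (20820), and low for the summed nuclear-encoded respiratory chain genes (7309). Pomc makes up most of that neuropeptide sum. Mutant SD replicate 2 was high for Cwf19l1 (1.08 CPM).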

How the results depend on the processing

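The count of called genes was 0 for the mutant response, the genotype difference and the control response, and DESeq2 gave 25, 15 and 103 in that order. The control count was 1 without the low-count filter, 1 in index numbers 1 to 18 alone and 2 without the pituitary-carrying libraries. Leaving out 1 library at a time gave 0 to 6 calls for the mutant response, 0 to 4 for the genotype difference and 0 to 1 for the control response. The 6 and the 4 came without mutant ZT6 replicate 1, which leaves 1 mutant ZT6 library, assumed to vary like the other groups; 1 call of the difference came without control ZT6 replicate 1. Counts did not move under RLE factors, limma-voom, no index term, 3 index ranges, only the mutant libraries or a mean of at least 1 CPM, the last chosen after seeing the data. Over 26 settings, 28 of 51 named genes and 30 of 38 list medians changed sign under at least 1. The fit of all 22 libraries, which adds the 5 left out, mutant ZT6 replicates 2 and 3 among them, gave Sgk1 -0.89, Fosl2 -2.24 and a glucocorticoid median of -0.75, while Rbm3 was -2.05 and Cirbp -0.32; which of the 5 moved these values was not tested. No paired analysis was possible because the libraries come from separate mice and the labels give no replicate numbers. With 2 mutant ZT6 libraries, changes of 2-fold or less were mostly below what the test could detect.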
